A study of Arabidopsis thaliana with 12 samples.

Results

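The genes described here are the 45 Arabidopsis genes of very-long-chain fatty acid, wax and cutin synthesis, taken by gene identifier from a table of 33610 genes. They comprise the 21 members of the 3-ketoacyl-CoA synthase (KCS) family and 24 known enzymes, exporters and transcription factors of the plant cuticle. A gene was tested where its FPKM (fragments mapped to the gene, scaled for its length and for all fragments mapped in the library) was at least 1 in at least 3 libraries, which left 43 of the 45 genes, among 20715 genes of the whole table. KCS14 (AT3G10280) and KCS18 (AT4G34520), the seed oil enzyme FAE1, did not reach that limit: KCS14 was at 1 FPKM or more in 2 libraries and KCS18 in 0.

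RNA-seq libraries were made from unopened flower buds (stage 1 to 12) of wild-type plants (WT, Columbia-0) and of a bzip17 T-DNA insertion mutant in the same background, kept at 22 °C or placed at 38 °C for 6 h at flowering. Each of the 4 groups (WT at 22 °C, WT at 38 °C, bzip17 at 22 °C, bzip17 at 38 °C) had 3 biological replicates, each a pool of 8 plants, and the mutant was represented by 1 insertion line. The comparisons ask how heat changed these genes in either genotype, how the genotypes differed at either temperature, and whether the heat response itself differed. bZIP17 is a membrane-bound transcription factor of the endoplasmic reticulum that is released under stress, and its own transcript (AT2G40950) was at 31.6 to 51.0 CPM in the 6 WT libraries and at 3.49 to 10.3 CPM in the 6 mutant libraries. CPM here are counts scaled to the same total in every library, with the TMM correction for composition. Library totals were 38584506 to 71779333 counts, of which ribosomal RNA loci took 1.43% to 64.8% and over 10% in 4 libraries. These 4 were WT at 22 °C replicates 2 and 3, WT at 38 °C replicate 1 and bzip17 at 22 °C replicate 1.

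The cuticle that seals the aerial epidermis is a cutin polyester embedded in and covered by waxes. Its wax chains are built in the endoplasmic reticulum by an elongase that adds carbon units to fatty acyl-CoA: a KCS enzyme condenses, and a reductase, a dehydratase and another reductase complete each round. The chains are then converted to alkanes, alcohols, ketones and esters, cutin monomers are made from shorter chains by hydroxylases and acyltransferases, and transporters carry both to the surface. In flower buds the same chemistry also supplies the lipids of the pollen coat and keeps neighbouring organs from fusing.

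The proximal promoters of the genes on which the results turn are shown first. Each is the 250 bases before the RefSeq gene start (TAIR10.1), 5′ to 3′ on the gene's strand, and the set holds the 5 genes that fell in heated bzip17 buds, the 1 gene that rose in heated WT buds, and the exporter gene ABCG11, whose window held both forms of an L1 box. Capitals mark matches, on either strand, to a heat shock element (GAANNTTC), a G-box (CACGTG), the ERSE-II element of unfolded protein response genes, an L1 box of epidermal genes (TAAATGCA or TAAATGTA), a GCC box (GCCGCC), a MYB element (ACCAAC) or a CCAAT box (CCAAT).
CYP96A15 (chr1:21385710-21385959, minus strand): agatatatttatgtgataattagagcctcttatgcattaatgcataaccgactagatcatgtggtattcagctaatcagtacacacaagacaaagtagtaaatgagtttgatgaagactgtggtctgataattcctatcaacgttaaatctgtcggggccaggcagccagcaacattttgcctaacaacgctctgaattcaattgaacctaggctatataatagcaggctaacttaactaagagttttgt
GPAT6 (chr2:15955753-15956002, minus strand): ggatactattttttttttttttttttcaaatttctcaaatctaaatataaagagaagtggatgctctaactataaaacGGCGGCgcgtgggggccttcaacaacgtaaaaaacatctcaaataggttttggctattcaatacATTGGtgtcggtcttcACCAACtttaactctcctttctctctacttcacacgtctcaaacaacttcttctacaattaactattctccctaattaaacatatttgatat
KCS6 (chr1:25715025-25715274, minus strand): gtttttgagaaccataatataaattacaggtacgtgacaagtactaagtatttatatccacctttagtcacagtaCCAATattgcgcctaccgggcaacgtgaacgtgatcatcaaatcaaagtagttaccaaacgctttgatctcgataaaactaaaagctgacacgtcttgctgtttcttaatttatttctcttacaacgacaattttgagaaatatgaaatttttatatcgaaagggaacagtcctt
CER2 (chr4:12660437-12660686, plus strand): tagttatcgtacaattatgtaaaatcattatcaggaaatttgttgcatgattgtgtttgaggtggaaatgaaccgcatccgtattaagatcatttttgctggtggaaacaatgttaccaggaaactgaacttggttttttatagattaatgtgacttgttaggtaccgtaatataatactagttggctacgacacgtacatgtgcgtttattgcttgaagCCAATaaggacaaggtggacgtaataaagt
CER4 (chr4:16207957-16208206, minus strand): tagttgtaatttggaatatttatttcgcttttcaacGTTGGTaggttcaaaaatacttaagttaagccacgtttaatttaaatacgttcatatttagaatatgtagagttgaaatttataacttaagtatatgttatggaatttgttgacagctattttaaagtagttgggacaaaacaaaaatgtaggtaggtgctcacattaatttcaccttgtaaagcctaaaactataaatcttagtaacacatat
KCS16 (chr4:16394350-16394599, plus strand): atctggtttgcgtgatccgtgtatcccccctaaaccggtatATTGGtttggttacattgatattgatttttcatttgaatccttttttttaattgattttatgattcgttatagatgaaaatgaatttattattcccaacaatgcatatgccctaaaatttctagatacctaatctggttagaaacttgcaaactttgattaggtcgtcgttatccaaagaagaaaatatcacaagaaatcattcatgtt
ABCG11 (chr1:6142152-6142401, plus strand): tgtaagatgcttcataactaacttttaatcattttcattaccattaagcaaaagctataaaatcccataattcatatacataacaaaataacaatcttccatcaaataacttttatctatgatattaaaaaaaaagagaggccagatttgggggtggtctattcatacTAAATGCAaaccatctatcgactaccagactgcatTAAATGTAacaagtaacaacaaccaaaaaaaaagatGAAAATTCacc

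Among the 5 genes that fell, the window of CYP96A15 held none of these motifs, those of KCS6 and CER2 held a CCAAT box, that of CER4 a MYB element, and that of GPAT6 a GCC box, a CCAAT box and a MYB element. Over all 45 genes an L1 box of either form was found in 5 windows (11.1%; KCS9, KCS10, KCS18, ABCG11 and MYB96), against 4.49% of 27443 promoters of the same length. A MYB element was found in 9 windows (20% against 11.5%) and a heat shock element in 6 (13.3% against 9.55%). A CCAAT box was found in 16 windows (35.6% against 46.0%) and a GCC box in 1 (2.22% against 1.87%). A G-box was found in none of the 45 (6.49% of all promoters), nor was ERSE-II (0.0619%). These matches are descriptions of the windows, and no binding was measured here.

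The KCS genes set the chain length that the elongase makes, and their shares of the family's transcripts were uneven. KCS6 (AT1G68530, CER6), the main condensing enzyme of stem wax and pollen coat lipids, took 13.5% to 24.8% of the summed FPKM of the 21 genes in a library (median 17.3%) and ranked 1 or 2 in all 12. KCS10 (AT2G26250, FIDDLEHEAD), whose loss fuses floral organs, took a median of 14.5%. KCS2 (AT1G04220, DAISY) and KCS20 (AT5G43760), which are partly redundant in wax and root suberin, took medians of 11.7% and 7.99%. The order of KCS6 and KCS10 went with temperature, although their ranges over all libraries overlapped. KCS6 was above KCS10 in every library at 22 °C. KCS10 was above KCS6 in every library of bzip17 at 38 °C and in replicate 3 of WT at 38 °C. The share of KCS6 was 18.7% to 21.1% in WT at 22 °C and 13.5% to 15.8% at 38 °C. In bzip17 it was 20.9% to 24.8% at 22 °C and 13.6% to 15.5% at 38 °C. These shares were not tested. Next came KCS9 (AT2G16280), which makes chains of intermediate length, at a median of 5.80%, KCS8 (AT2G15090) at 4.77%, KCS15 (AT3G52160) at 4.74%, KCS12 (AT2G28630) at 4.73% and KCS1 (AT1G01120), a wax enzyme of young tissue, at 4.57%. Neighbours in that part of the order overlapped across libraries. KCS7 (AT1G71160), which acts with KCS15 and KCS21 in the tapetum to make pollen coat lipids, was at 3.06%, and KCS4 (AT1G19440), KCS11 (AT2G26640), KCS5 (AT1G25450), KCS19 (AT5G04530), KCS17 (AT4G34510) and KCS3 (AT1G07720) were at 1.84% to 2.74%. KCS13 (AT2G46720, HIC), known from stomatal patterning, KCS21 (AT5G49070) and KCS16 (AT4G34250) each had a median under 1%. The coding sequences of KCS13 and the untested KCS14 were 97.5% identical, so that their reads could be shared between the 2 genes and both values are uncertain. KCS5 and KCS6 were 80.5% identical, as were KCS2 and KCS20, and KCS8 and KCS16 were 75.0% identical.

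Outside the KCS family, mean FPKM over the 12 libraries ranged from 3.06 for CYP86A2 (AT4G00360), a cutin hydroxylase, to 269.3 for LTPG1 (AT1G27950), a membrane-anchored lipid transfer protein. CER1 (AT1G02205), the enzyme of alkane formation, followed at 170.9 FPKM, and its partner CER3 (AT5G57800) stood at 35.03. The other elongase subunits were PAS2 (AT5G10480), the dehydratase, at 86.0 FPKM, CER10 (AT3G55360), the enoyl reductase, at 60.3, and KCR1 (AT1G67730), the ketoacyl reductase, at 48.2. CER2 (AT4G24510), which works with KCS6 to make the longest chains, was at 24.7. Cutin synthesis was led by the acyltransferase DCR (AT5G23940) at 88.6 FPKM and by GPAT6 (AT2G38110), the glycerol-3-phosphate acyltransferase of floral cutin, at 41.3. The related GPAT4 (AT1G01610) and GPAT8 (AT4G00400), of leaf and stem cutin, were at 31.5 and 8.55, and the hydroxylases CYP77A6 (AT3G10570) and CYP86A4 (AT1G01600) of petal cutin at 28.8 and 20.7. The acyl-CoA synthetases LACS1 (AT2G47240) and LACS2 (AT1G49430) were at 58.4 and 28.7, and the exporters ABCG11 (AT1G17840) and ABCG12 (AT1G51500) at 38.7 and 13.5. The remaining wax enzymes, CYP96A15 (AT1G57750, MAH1), which hydroxylates alkanes, WSD1 (AT5G37300), which makes wax esters, and CER4 (AT4G33790), which makes primary alcohols, were at 39.4, 18.5 and 13.7. Of the transcription factors, SHN1 (AT1G15360), an activator of cutin genes, was at 33.4 FPKM, MYB30 (AT3G28910) at 7.81 and MYB96 (AT5G62470), a drought-responsive activator of wax genes, at 5.12. KCS2, KCS11, CER2, ABCG11 and CYP86A2 overlap a neighbouring gene in the deposited coordinates, so their counts may hold reads of that neighbour.

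**Figure D1:**
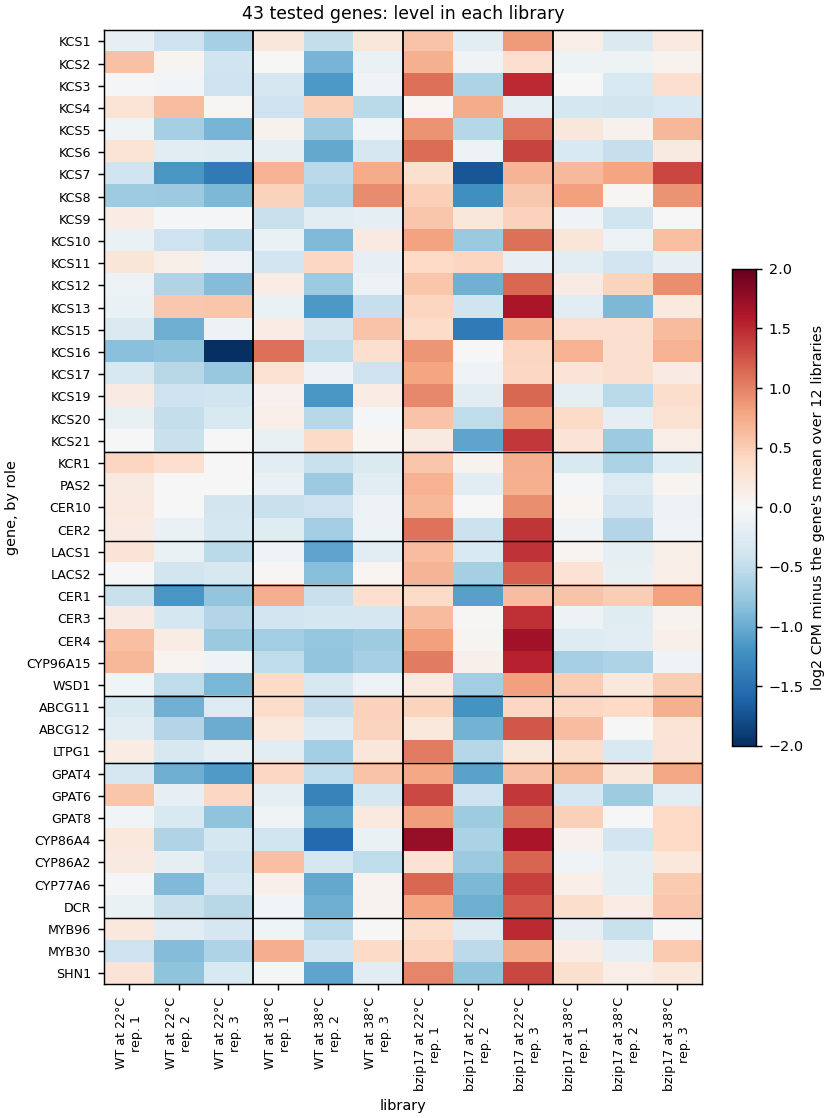
Level of the 43 tested genes (rows, by role) in the 12 libraries (columns), as log2 CPM minus the gene's own mean over the libraries. Replicate 3 of bzip17 at 22 °C was the highest library for 30 of the 43 genes, and replicate 2 of WT at 38 °C was the lowest for 21.

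Most of the 43 genes were high, or low, in the same libraries, and the mutant at 22 °C was split. The summed level of the 43 genes was 3782 and 4412 CPM in replicates 1 and 3 of bzip17 at 22 °C and 1588 CPM in replicate 2. In the other groups it was 1710 to 2322 CPM (WT at 22 °C), 1432 to 2407 CPM (WT at 38 °C) and 2203 to 2939 CPM (bzip17 at 38 °C). Replicate 1 of bzip17 at 22 °C was above the gene's own mean for 43 of 43 genes and replicate 3 for 41, whereas replicate 2 was above it for 8. All role groups shared this split: in those 3 libraries the condensing enzymes summed to 416 to 979 CPM and the cutin enzymes to 207 to 860 CPM, with replicate 2 the lowest in each.

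**Figure D2:**
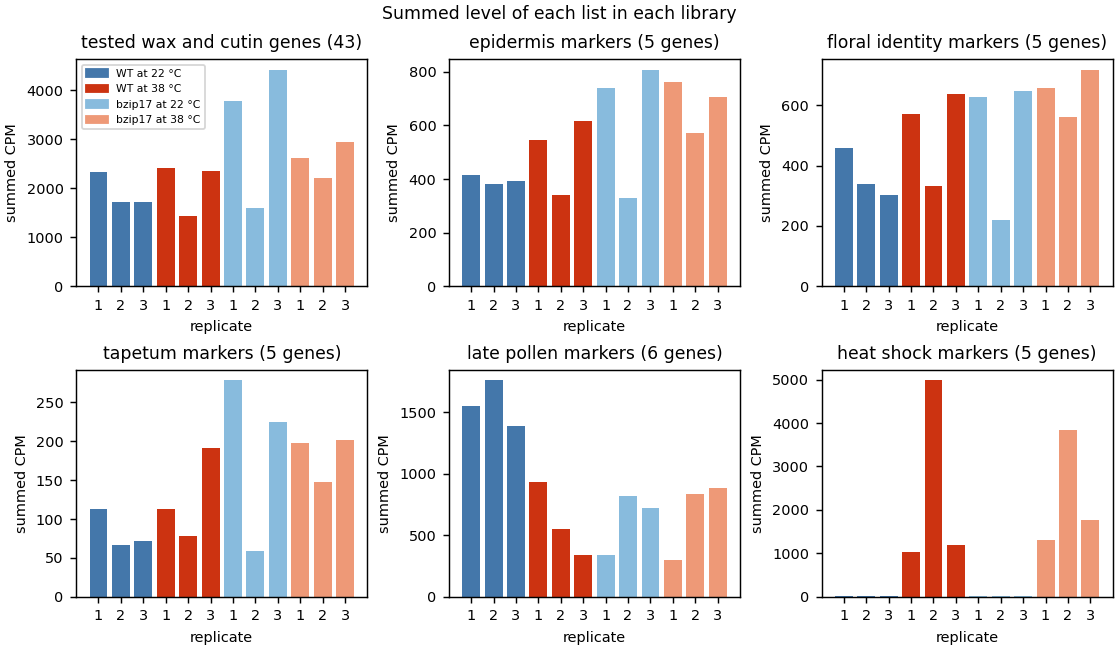
Summed CPM of the 43 tested genes and of 5 marker lists in each library (bars, colour by group, replicates 1 to 3 on the x axis). In bzip17 at 22 °C, replicate 2 is the lowest of the 3 bars for the wax and cutin genes and for the epidermis, floral identity and tapetum markers, and heat shock markers are highest in replicate 2 of either heated group.

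The summed epidermis, floral identity and tapetum markers were split in the same way in bzip17 at 22 °C, and late pollen markers were not. The 5 epidermis markers (ATML1, PDF1, PDF2, HDG1, HDG2) summed to 741 and 808 CPM in replicates 1 and 3 of bzip17 at 22 °C and to 330 CPM in replicate 2. In WT at 22 °C they summed to 383 to 414 CPM, and none of them was under 1 CPM in any library. Of these sums in bzip17 at 22 °C, PDF1 alone made up 492, 212 and 564 CPM in replicates 1 to 3. HDG1 did not share the split, at 18.3, 20.7 and 30.8 CPM. The 5 floral identity markers ranged from 219 to 718 CPM over all libraries, and the 5 tapetum markers from 58.7 CPM in replicate 2 of bzip17 at 22 °C to 278 CPM in replicate 1. The tapetum regulator TDF1 lay between 0.35 and 1.76 CPM, and MS1 reached down to 0.97 CPM, so these 2 markers were near the floor in some libraries. The 6 late pollen markers summed to 1388 to 1761 CPM in WT at 22 °C and to 295 to 932 CPM in the 9 other libraries. In bzip17 at 22 °C they summed to 337, 824 and 724 CPM in replicates 1 to 3, with replicate 2 the highest. The 5 heat shock markers were at 13.6 to 20.5 CPM at 22 °C and at 1025 to 1765 CPM in 4 heated libraries, but at 4981 and 3833 CPM in replicate 2 of WT and of bzip17 at 38 °C. The part of these markers in the results below was not tested. In bulk buds, fewer cells of a type and less RNA per cell cannot be told apart.

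Heat in WT buds left most of the pathway without a call and raised 1 gene. A gene was called where the adjusted p of edgeR's quasi-likelihood test (Benjamini-Hochberg over 20715 genes) was under 0.05 and the change over 2-fold. By that rule 1 of the 43 genes rose (KCS16) and 0 fell, against 6.4% and 6.43% of all genes tested. The 43 log2 changes ran from -0.90 to 1.56 with a median of 0.0089 (0.016 over all genes), 22 above 0 and 21 below. Scaling to library totals moved the median of all genes to 0.41 and that of the 43 to 0.36, and turned 10 of the 43 from below to above 0. Leaving out 1 library gave medians of the 43 from -0.13 (without replicate 3 of WT at 38 °C) to 0.25 (without replicate 2), and leaving out the 4 libraries rich in ribosomal RNA, with 1 library then left in WT at 22 °C, gave -0.31. At an unadjusted p under 0.05, 6 genes were higher (14.0%) and 3 lower (6.98%), against 20.2% and 19.5% of all genes. DESeq2 likewise found 0 that fell, but 5 that rose: KCS16, KCS7, KCS8, CER1 and GPAT4. Over all 20715 genes it called 1552 down and 1518 up. Limma on log2(FPKM + 1) called 4 up and 0 down, against 2129 and 352 of all genes.

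KCS16, a condensing enzyme linked to trichome wax, was the weakest of the tested KCS genes by FPKM and passed the FPKM limit in 6 libraries, only 2 of them heated WT and 0 of them WT at 22 °C. It stood at 0.74, 0.76 and 0.26 CPM in the 3 libraries of WT at 22 °C and at 2.81, 0.93 and 1.67 CPM in WT at 38 °C. The heated libraries were all above the unheated ones, with replicate 2 close to them. The change was 1.56 ± 0.52 (log2, SE; adjusted p = 0.0444, edgeR), or 2.95-fold. In the mutant it was at 2.42, 1.32 and 1.78 CPM at 22 °C and at 2.14, 1.64 and 2.12 CPM at 38 °C, groups that overlapped (0.10 ± 0.50). The call was lost in 10 of the 12 fits that left out 1 library.

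**Figure D3:**
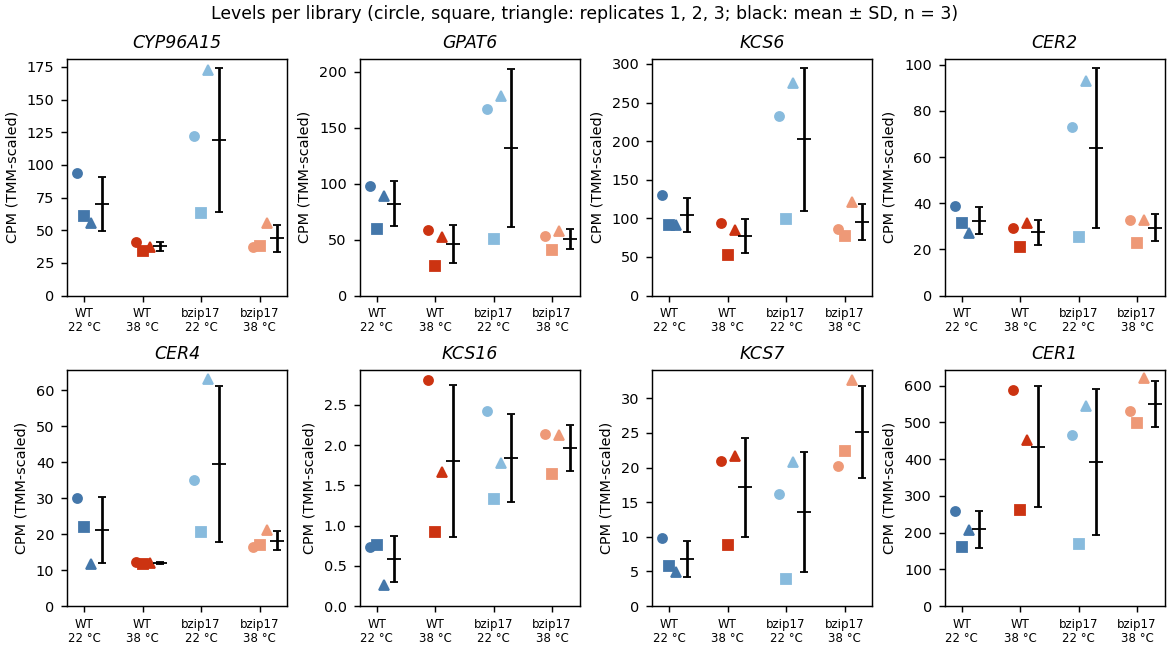
CPM of 8 genes in each library, by group (symbols: replicates 1, 2 and 3; black: mean ± SD, n = 3; axes start at 0). CYP96A15 lies at 34.1 to 55.5 CPM in the 6 heated libraries and at 55.8 to 173 CPM in the 6 libraries at 22 °C, and replicate 2 is the lowest of bzip17 at 22 °C in all 8 panels.

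A group of genes with higher values in heated WT buds missed the adjusted threshold. CER1 was at 260, 160 and 206 CPM at 22 °C and at 589, 261 and 451 CPM at 38 °C, with the lowest heated library just above the highest unheated one (1.06 ± 0.39, adjusted p = 0.0660, edgeR). KCS7 was at 9.82, 5.74 and 4.87 CPM at 22 °C and at 20.9, 8.88 and 21.6 CPM at 38 °C, and its groups overlapped at replicate 2 (1.32 ± 0.53, adjusted p = 0.0834). KCS8 (1.18 ± 0.45, adjusted p = 0.0737), GPAT4 (1.00 ± 0.42, adjusted p = 0.0959) and MYB30 (0.93 ± 0.35, adjusted p = 0.0645) had similar values. In each of the 5 genes, replicate 2 was the lowest of the 3 heated libraries. Without that library 4 of the 43 genes rose in place of 1 (1205 of all 20715 genes). Without replicate 2 of bzip17 at 22 °C 5 did (1413 of all genes).

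On the lower side in heated WT buds, KCR1 passed the adjusted p alone. It was at 88.6, 83.5 and 65.9 CPM at 22 °C and at 56.9, 48.5 and 53.8 CPM at 38 °C (-0.58 ± 0.18, adjusted p = 0.0350, edgeR). With no fold limit, a rule added after the data were seen, 1 gene was up and 1 down, against 13.7% and 12.9% of all genes. The groups did not overlap for 4 genes that were higher in heat (CER1, KCS8, MYB30, KCS16) and for 5 that were lower (CYP96A15, KCR1, KCS9, GPAT6, PAS2). That is 9.30% and 11.6% of the 43, below the 22.8% and 21.9% of all genes whose groups did not overlap in those directions.

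Heat in bzip17 buds lowered 5 genes and raised 0, against 6.44% and 6.08% of all genes tested. The 5 were CYP96A15 and CER4 of wax conversion, KCS6 and CER2 of chain elongation, and GPAT6 of floral cutin, which together are 11.6% of the 43. The median change of the 43 was -0.49 (-0.049 over all genes), 34 were below 0 and 9 above, and at an unadjusted p under 0.05 there were 13 lower (30.2%) and 0 higher, against 20.4% and 18.3% of all genes. The median was -0.20 without replicate 3 of bzip17 at 22 °C and -0.18 with limma on log2(FPKM + 1). DESeq2 called 6 down (with CYP86A4 added) and 0 up, against 1459 and 1416 of all 20715 genes. Limma on log2(FPKM + 1) called 0 in either direction, against 510 down and 1083 up of all genes.

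CYP96A15, which turns alkanes into secondary alcohols and ketones, was at 122, 63.0 and 173 CPM in bzip17 at 22 °C and at 37.3, 38.3 and 55.5 CPM at 38 °C. The heated libraries were all below the unheated ones. It fell by 1.45 on the log2 scale (SE 0.32, adjusted p = 0.00642, edgeR), and stayed called in all 12 fits that left out 1 library (-1.75 to -1.08). In WT it was at 93.5, 61.1 and 55.8 CPM at 22 °C and at 41.3, 34.1 and 37.3 CPM at 38 °C, again without overlap (-0.90 ± 0.32, adjusted p = 0.0542).

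GPAT6 was at 166, 50.5 and 179 CPM in bzip17 at 22 °C and at 53.2, 40.8 and 57.9 CPM at 38 °C, so that the heated libraries overlapped replicate 2 only (-1.38 ± 0.42, adjusted p = 0.0296, edgeR). In WT it was at 97.9, 59.9 and 89.1 CPM at 22 °C and at 58.9, 26.6 and 52.4 CPM at 38 °C (-0.84 ± 0.42, adjusted p = 0.153). The WT groups did not overlap, but only by a small margin.

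KCS6 was at 233, 98.8 and 275 CPM in bzip17 at 22 °C and at 86.7, 77.7 and 121 CPM at 38 °C (-1.09 ± 0.34, adjusted p = 0.0359, edgeR). In WT it was at 130, 91.3 and 91.2 CPM at 22 °C and at 93.6, 52.6 and 85.0 CPM at 38 °C, groups that overlapped (-0.44 ± 0.34, adjusted p = 0.371). CER2, its partner in making the longest chains, had the same shape. It was at 73.0, 25.5 and 93.1 CPM in bzip17 at 22 °C and at 32.8, 22.8 and 32.8 CPM at 38 °C (-1.12 ± 0.37, adjusted p = 0.0417). In WT it was at 38.8, 31.5 and 27.1 CPM at 22 °C and at 29.1, 21.2 and 31.6 CPM at 38 °C (-0.25 ± 0.36, adjusted p = 0.647). In both genes replicate 2 of the unheated mutant lay within the heated range.

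CER4, the fatty acyl reductase that makes primary alcohols, was at 35.02, 20.6 and 63.2 CPM in bzip17 at 22 °C and at 16.4, 17.01 and 21.2 CPM at 38 °C (-1.12 ± 0.37, adjusted p = 0.0441, edgeR). In WT it was at 30.0, 21.9 and 11.8 CPM at 22 °C and at 12.2, 11.6 and 12.0 CPM at 38 °C (-0.84 ± 0.37, adjusted p = 0.116). The 3 heated WT libraries were nearly equal, and the unheated ones reached down to them.

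Replicates 1 and 3 of bzip17 at 22 °C were the high libraries for all 5 genes that fell, as for most of the 43. Without replicate 2 of that group 14 of the 43 genes fell (1271 of all 20715 genes). Without replicate 1 or replicate 3 only 1 did, CYP96A15 (1308 and 1338 of all genes). Leaving out a heated mutant library also ended calls. Without replicate 1 or 2 of bzip17 at 38 °C only CYP96A15 fell (1222 and 1048 of all genes). Without replicate 3 only CYP96A15 and KCS6 fell (1139 of all genes). Without 1 of the WT libraries 3 to 5 of the 43 genes fell (1255 to 1363 of all genes). Without replicate 1 of the heated mutant the changes of KCS6, GPAT6, CER2 and CER4 were -1.02, -1.42, -1.20 and -1.05, and without replicate 1 of the unheated mutant -0.98, -1.18, -1.01 and -1.20. Without replicate 3 of the unheated mutant the change was -0.80 for KCS6, -1.10 for GPAT6, -0.74 for CER2 and -0.61 for CER4 (adjusted p = 0.125, 0.0980, 0.163 and 0.206, edgeR). With scaling to library totals (448 of all genes fell), and with limma on FPKM (510 and 410), 0 of the 43 genes fell in the mutant. With library totals the changes were -1.34 for CYP96A15, -1.24 for GPAT6, -1.03 for CER4, -0.99 for CER2 and -0.96 for KCS6, with adjusted p from 0.0754 to 0.265 (edgeR). Leaving out the 4 libraries rich in ribosomal RNA left 1. Same-numbered mutant libraries deviated together, but the labels do not say that a number marks a shared batch. The number was used as a block in a fit of only the 2 mutant groups, not of all 12 libraries. There 4 of the 5 were called and CER2 was not (-0.96, adjusted p = 0.0572, edgeR), with 1261 of all genes down. The same 2 groups without the block gave 1 call among the 43, CYP96A15, with 1225 of all genes down.

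With no fold limit, 9 genes (20.9% of the 43) were down and 0 up in the mutant, against 13.9% and 13% of all genes. The 9 were the 5 above with KCR1 (-0.86 ± 0.18, adjusted p = 0.00530, edgeR), KCS9 (-0.57 ± 0.14, adjusted p = 0.0122), CER10 (-0.73 ± 0.23, adjusted p = 0.0336) and CER3 (-0.92 ± 0.30, adjusted p = 0.0401). KCR1 was at 97.0, 69.3 and 109 CPM at 22 °C and at 53.4, 42.7 and 55.7 CPM at 38 °C, and KCS9 at 50.4, 40.1 and 46.8 CPM and at 32.4, 25.9 and 34.0 CPM. Neither gene's groups overlapped, and neither split as widely at 22 °C as KCS6 did. CER3 was at 122, 79.5 and 216 CPM at 22 °C and at 73.0, 66.0 and 81.9 CPM at 38 °C in the mutant, and at 87.6, 61.0 and 51.9 CPM and at 60.0, 61.2 and 62.0 CPM in WT. The 3 heated WT libraries of CER3 lay inside the unheated range. Groups did not overlap for 5 of the 43 genes on the lower side (KCS4, CYP96A15, KCR1, KCS9, KCS11; 11.6%) and for 0 on the higher side, against 21% and 22.1% of all genes.

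**Figure D4:**
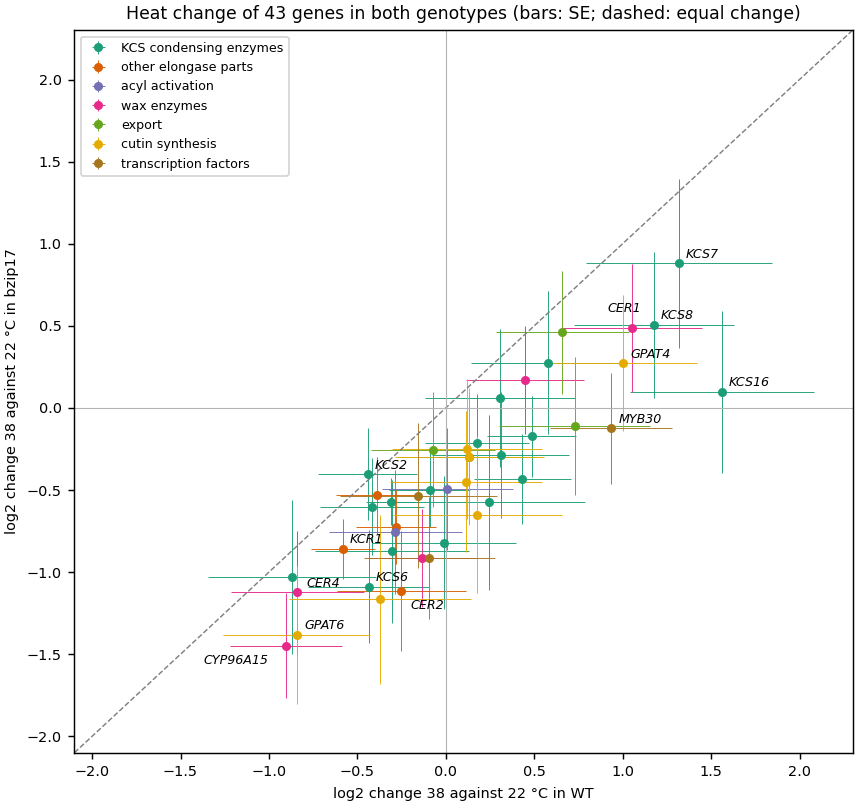
Log2 change with heat in WT (x axis) and in bzip17 (y axis) for the 43 genes, coloured by role, with SE bars (edgeR, 3 libraries per group). The points rise from CYP96A15 and GPAT6 at the lower left to KCS7 at the upper right, and 42 of the 43 lie below the dashed line of equal change.

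The order of the genes was alike in the 2 genotypes, which share no library in this comparison. Across the 43 genes the heat changes had a Pearson r of 0.876 and a Spearman rho of 0.868. These are descriptions across genes, which share libraries and are not independent replicates. In 30 genes the sign was the same (9 higher in both, 21 lower in both), 13 were higher in WT and lower in bzip17, and 0 the reverse. The change was lower in bzip17 than in WT for 42 of the 43, KCS2 being the exception (-0.44 in WT and -0.40 in bzip17), and no exception with library totals.

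The difference between the genotypes' heat responses was itself tested, and 0 of the 43 genes passed, as did 0 of all genes (0%; edgeR, adjusted p under 0.05). At an unadjusted p under 0.05 there were 2, MYB30 (-1.06 ± 0.48) and KCS1 (-0.86 ± 0.39), or 4.65% of the 43 against 4.32% of all genes, and DESeq2 and limma called 0 of the 43. The median difference, bzip17 minus WT, was -0.50 (-0.055 over all genes) and 42 of 43 were below 0. The median was -0.18 without replicate 3 of bzip17 at 22 °C and -0.85 without replicate 2. Without the 4 libraries rich in ribosomal RNA it was -0.041, but WT at 22 °C then had 1 library. Related lists were also mostly below 0. These were 28 of 33 other wax and cutin genes (median -0.34), 9 of 9 sporopollenin precursor genes (-0.83) and 4 of 4 suberin genes (-0.48). So were 4 of 5 tapetum (-0.60), 5 of 5 epidermis (-0.13) and 5 of 5 floral identity markers (-0.067). All 6 late pollen (1.71) and 5 heat shock markers (0.69) were above 0. MYB30, a transcription factor that activates very-long-chain fatty acid genes in defence, was at 8.49, 6.24 and 7.40 CPM in WT at 22 °C and at 18.8, 8.72 and 14.8 CPM at 38 °C. In the mutant it was at 15.3, 7.92 and 19.2 CPM at 22 °C and at 12.5, 10.2 and 16.3 CPM at 38 °C. It was higher in all 3 heated WT libraries, whereas the mutant groups overlapped.

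Heat averaged over both genotypes, a comparison added after the data were seen, used all 12 libraries. By the call rule 1 gene rose, KCS7, and 2 fell, CYP96A15 and GPAT6, against 7.4% and 7.83% of all genes. KCS7 was at 16.2, 3.95 and 20.7 CPM in bzip17 at 22 °C and at 20.2, 22.4 and 32.7 CPM at 38 °C, and its averaged change was 1.10 ± 0.37 (adjusted p = 0.0299, edgeR). CYP96A15 fell by 1.17 (SE 0.22, adjusted p = 0.00140) and GPAT6 by 1.11 (SE 0.29, adjusted p = 0.00960). KCS7 lost its call in 6 of the 12 fits that left out 1 library, GPAT6 in 2 and CYP96A15 in 1.

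With no fold limit, 3 genes were up (6.98% of the 43) and 10 down (23.3%) in that average, against 21.5% and 22.3% of all genes. The genes that were up were KCS7, KCS8 (0.84 ± 0.32, adjusted p = 0.0484, edgeR) and CER1 (0.77 ± 0.28, adjusted p = 0.0395). CER1 was at 465, 168 and 544 CPM in bzip17 at 22 °C and at 530, 498 and 620 CPM at 38 °C. Its mutant groups overlapped at replicate 3 of the unheated libraries. The genes that were down held the 3 core elongase subunits KCR1 (-0.72 ± 0.13, adjusted p = 9e-04), CER10 (-0.50 ± 0.16, adjusted p = 0.0234) and PAS2 (-0.46 ± 0.17, adjusted p = 0.0397), with CER2, and the condensing enzymes KCS6, KCS9 and KCS13. They also held CYP96A15, CER4 and GPAT6. All 4 of the elongase genes outside the KCS family were below 0 in either genotype, with CER10, CER2 and, on the FPKM scale, PAS2 turning above 0 in WT when library totals or FPKM set the scale.

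Ratios of 2 genes within a library do not depend on how libraries are scaled against each other. The 8 pairs were picked after their values were seen, so the ratios are described and not tested. The FPKM of CER1 was 1.89 to 2.67 times that of CYP96A15 in WT at 22 °C and 5.52 to 10.3 times at 38 °C, and 1.93 to 2.76 times and 8.08 to 10.3 times in bzip17. CER1 likewise stood at 2.73 to 4.15 times CER3 in WT at 22 °C and at 4.45 to 10.3 times at 38 °C. In bzip17 these were 2.20 to 3.996 times and 7.59 to 7.92 times. For both ratios the heated libraries were above the unheated ones without overlap in either genotype.

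**Figure D5:**
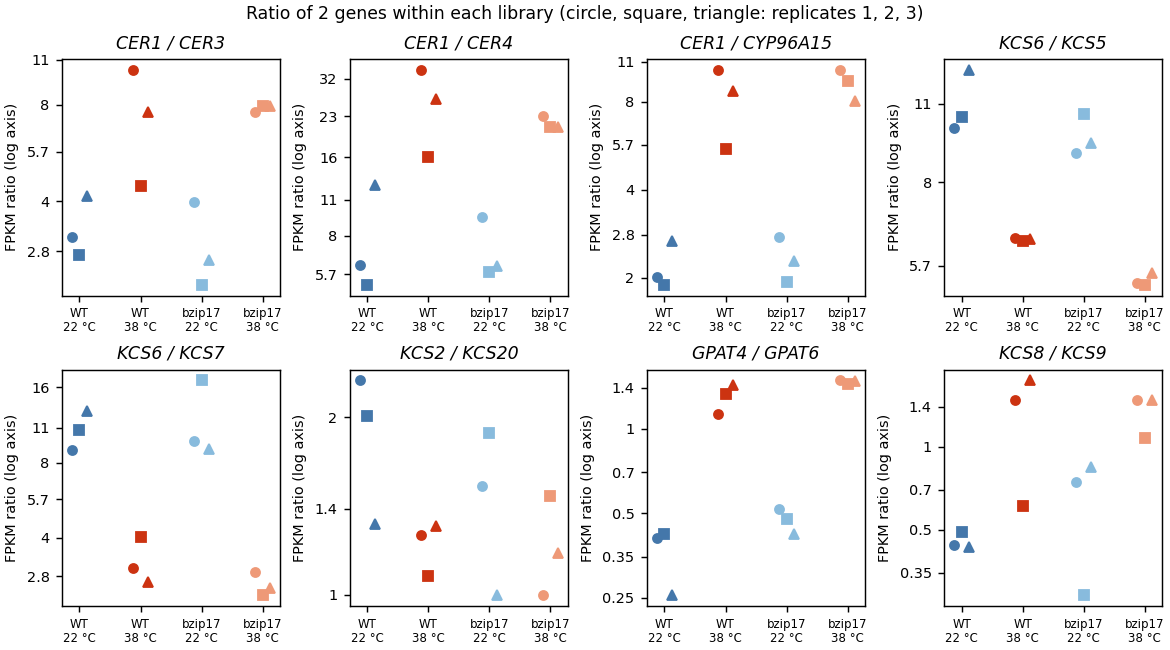
Ratio of the FPKM of 2 genes within each library, for 8 pairs and 4 groups (symbols: replicates 1, 2 and 3; log axes). Heated and unheated libraries do not overlap in 8 of 8 pairs in WT and in 7 of 8 in bzip17, the exception being KCS2 to KCS20. The pairs were picked after their values were seen and several share a gene, so these counts are not a test.

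Within cutin synthesis, GPAT4 stood at 0.25 to 0.42 times GPAT6 in WT at 22 °C and at 1.13 to 1.43 times at 38 °C. In bzip17 the ratio was 0.42 to 0.52 at 22 °C and 1.44 to 1.49 at 38 °C. GPAT6 was thus the more abundant of the 2 at 22 °C and GPAT4 at 38 °C, in both genotypes. Within the KCS family, KCS6 stood at 9.95 to 12.6 times its close copy KCS5 in WT at 22 °C and at 6.31 to 6.38 times at 38 °C, and at 9.001 to 10.6 times and 5.27 to 5.53 times in bzip17. KCS6 to KCS7 went from 9.002 to 12.9 times at 22 °C to 2.67 to 4.02 times at 38 °C in WT, and from 9.02 to 17.04 times to 2.35 to 2.91 times in bzip17. Between the genotypes, 0 of the 8 ratios were without overlap at 22 °C and 2 at 38 °C (KCS6 to KCS5 and GPAT4 to GPAT6). In bzip17 at 22 °C, replicate 2 was the lowest of the 3 libraries in the 3 ratios of CER1 and the highest in the ratios of KCS6 to KCS5 and KCS2 to KCS20. It stood well apart in 2 ratios, KCS6 to KCS7 (17.04 times, against 9.77 and 9.02 in replicates 1 and 3) and KCS8 to KCS9 (0.29 times, against 0.75 and 0.85), and lay between the other libraries only in that of GPAT4 to GPAT6.

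The mutation at 22 °C went with higher values of nearly the whole set, but no gene passed the test. Of the 43 genes 0 rose and 0 fell, against 0% and 0.00965% of all genes (edgeR), and DESeq2 and limma on log2(FPKM + 1) also called 0 of the 43. At an unadjusted p under 0.05, 27 were higher (62.8% of the 43) and 0 lower, against 5.1% and 4.69% of all genes. The median log2 difference, bzip17 minus WT, was 0.89 (0.022 over all genes), and 42 of 43 were above 0, KCS4 alone being below (-0.076 ± 0.30; above 0 with library totals). The largest differences were those of KCS16 (1.59 ± 0.52, adjusted p = 0.430, edgeR), CYP86A4 (1.44 ± 0.52, adjusted p = 0.453) and CYP77A6 (1.20 ± 0.48, adjusted p = 0.480). KCS16 was near the floor in WT at 22 °C, with 47, 32 and 4 reads in replicates 1 to 3. CYP86A4, which makes hydroxylated cutin monomers of the flower, was at 41.6, 23.8 and 28.2 CPM in WT and at 120, 23.1 and 111 CPM in bzip17. As for most genes, 2 mutant libraries were above all WT libraries and replicate 2 was not. The groups did not overlap for KCS9, KCS16 and KCS17, each higher in the mutant (6.98% of the 43, against 5.53% of all genes), and for 0 genes on the lower side (6.47% of all genes). The median of the 43 was 0.48 without replicate 3 of the mutant and 1.19 without replicate 2. Without the 4 libraries rich in ribosomal RNA it was 0.50, set against the 1 WT library that then remained. Related lists were also higher in the mutant at 22 °C. Of 33 other wax and cutin genes, 29 were above 0 and 4 below (median 0.56). HDG1 is in this list and among the epidermis markers, and without it 28 were above 0 and 4 below (median 0.59). All 9 sporopollenin precursor genes (median 1.04), 5 tapetum markers (1.02) and 5 epidermis markers (0.59) were above 0. So were all 5 floral identity markers (0.40). All 6 late pollen markers (-1.47) and 5 heat shock markers (-0.43) were below 0. The heat shock markers were near the floor at 22 °C, where 0 to 4 of the 5 were under 1 CPM in a library.

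The mutation at 38 °C left smaller differences. Of the 43 genes 0 rose and 0 fell, against 0.00483% and 0.00965% of all genes (edgeR), and 0 had an unadjusted p under 0.05 (1.14% of all genes were higher and 3.28% lower at that p). DESeq2 and limma called 0 as well. The median was 0.29 (-0.0024 over all genes), with 35 above 0 and 8 below. It was 0.092 without replicate 2 of WT, 0.18 without replicate 3 of bzip17 and 0.44 without replicate 1 of WT. KCS10 was at 77.3, 46.4 and 96.5 CPM in WT and at 100, 79.3 and 130 CPM in bzip17 at 38 °C (0.49 ± 0.39, 2 SE either side, -0.29 to 1.28), after 77.9, 63.9 and 59.3 CPM and 149, 50.8 and 182 CPM at 22 °C. KCS2 was at 55.7, 29.6 and 51.3 CPM and at 52.3, 52.2 and 58.9 CPM at 38 °C (0.26 ± 0.28, 2 SE either side, -0.30 to 0.82), after 83.9, 58.3 and 42.9 CPM and 91.7, 53.3 and 71.3 CPM at 22 °C. For both genes the genotypes overlapped at either temperature, and differences anywhere within these limits remained compatible with the data. The mutant libraries were all above the WT libraries at 38 °C for CER3, CER4, DCR, SHN1, KCS5 and KCS12 (14.0% of the 43, against 4.8% of all genes), and all below them for 0 genes (6.99% of all genes).

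Among other genes of the pathway, outside the 45, 33 wax and cutin genes were tested. Heat in WT raised 1 (3.03%) and lowered 1, against 6.4% and 6.43% of all genes, and heat in bzip17 lowered 2 (6.06%) and raised 0, against 6.44% and 6.08%. The gene that rose was CER1-LIKE1, a homologue of CER1, at 129.8 CPM on average in WT at 22 °C and 293.2 CPM at 38 °C (1.18 ± 0.38, adjusted p = 0.0419, edgeR). DEWAX, a transcriptional repressor of wax genes, fell in WT by 1.84 (SE 0.41, adjusted p = 0.00745) and in bzip17 by 1.25 (SE 0.40, adjusted p = 0.0378). CYP86A7, a relative of CYP86A4, fell in bzip17 by 1.66 (SE 0.50, adjusted p = 0.0296), from 56.5, 13.3 and 53.8 CPM at 22 °C to 15.4, 8.78 and 15.0 CPM. It showed the same 2 high mutant libraries. Of 9 sporopollenin precursor genes, which build the outer pollen wall, and 4 tested suberin genes, 0 were called in any of these comparisons. The sporopollenin genes summed to 343 and 441 CPM in replicates 1 and 3 of bzip17 at 22 °C and to 114 CPM in replicate 2.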

How the data were processed

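Per the submitters' processing notes the authors used cutadapt, HISAT2 and StringTie with the TAIR10 build (versions not given in the sources used here), and they deposited a read count and an FPKM value for each gene in each library. The study's methods name edgeR or DESeq2. The deposited counts of 20715 genes with FPKM of at least 1 in at least 3 libraries received TMM factors. They entered edgeR 4.0.16 (quasi-likelihood, 4 group means, 12 libraries, R 4.3.3). The fit was also run on counts simulated gene by gene, which lack the shifts shared by many genes of a library seen here. Rows of 15 ribosomal RNA loci stayed in and were left out in an alternative, and 0 value columns of other samples were present. DESeq2 1.42.0 and limma 3.58.1 were alternatives, as were other scalings, filters, call rules, the replicate number as a block and leaving out libraries. For a comparison of 2 groups the block was fitted to those 2 groups alone. The 45 genes and the other lists were chosen with earlier results of these data known. Full values are given for called genes, the 3 KCS genes with the highest FPKM and CER1, CER3 and CER4. Other genes with values per library, and the ratio pairs, were chosen after their values were seen. Same-numbered libraries deviated together in the heat comparison of bzip17 (correlations 0.223, 0.266 and 0.268 for replicates 1 to 3). In no other comparison did all 3 correlations pass 0.1, and the labels do not say that a replicate number marks a shared batch. Promoters came from the RefSeq TAIR10.1 genome, and all 45 genes matched it by identifier.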

Additional observations from a re-analysis of the deposited data

How the results depend on the processing

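No gene that was called reversed. Heat in WT raised 5 of the 43 genes with DESeq2, 5 at an unadjusted p with 2-fold and 3 with only the 2 groups fitted. Over all genes these settings raised 1518, 1654 and 1176. Limma on log2(FPKM + 1) and log2(FPKM + 0.1) raised 4 and 2 of the 43, against 2129 and 1948 of all genes. With no filter 0 of the 43 rose, against 1347 of all genes. With an adjusted p and no fold limit, 1 fell in WT and 9 in bzip17, and the genes called over the whole table were 5511 in WT, 5571 in bzip17 and 9067 averaged. Without the 4 rRNA-rich libraries 507 genes were called in WT. That fit keeps a lone library of unheated WT, assumed to vary like the other groups, 2 of heated WT and 2 of the unheated mutant. Heat in bzip17 lowered 0 of the 43 with library totals (1301 genes in all) or limma (1593 and 1308 genes), and 1 with only 2 groups or without the 4 libraries. Scaling to library totals moved the median of all genes to 0.41 in WT, 0.082 in bzip17 and 0.34 between genotypes at 22 °C, and limma on log2(FPKM + 1) to 0.43, 0.085 and 0.36. The rising share of calls went to 83.0% and 85.8% in WT and to 65.6% and 68.0% in bzip17. Directions within the 43 differed for 10 and 16 genes in WT, and for 0 and 4 in bzip17.

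Genotype at 22 °C raised 7 of the 43 at an unadjusted p with 2-fold, against 307 of all 20715 genes raised and 451 lowered. Over all genes the calls numbered 67 with DESeq2, 11 with totals, 7 and 9 with limma, 758 at an unadjusted p and 4 with 2 groups. Genotype at 38 °C gave 37 with DESeq2, 7 with totals, 6 with limma on log2(FPKM + 1), 239 at an unadjusted p, and 0 with the block or without the 4 libraries. For the difference of heat responses 2 of the 43 passed an unadjusted p, and over all genes 6 with DESeq2, 3 with totals, 1 with limma on log2(FPKM + 1), 895 at an unadjusted p and 1 without the 4 libraries. Averaged heat raised 3 of the 43 with totals and 3 and 4 with limma (2292, 1999 and 2680 of all genes). It lowered 0 with totals or limma (905, 586 and 783 of all genes). With no fold limit it raised 3 and lowered 10 (4444 and 4623 of all genes).

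Leaving out 1 library at a time gave 0 to 5 genes that rose and 0 to 0 that fell in WT, 0 to 0 and 1 to 14 in bzip17, 0 to 0 in either genotype comparison and in the difference, and 0 to 2 and 0 to 4 averaged. Over all genes these fits called 2014 to 2803, 2068 to 2608, 2 to 25, 2 to 7, 0 to 3 and 2954 to 3205. With the replicate number as a block, the fit of only the 2 groups compared called 4 of the 43 down in bzip17. Without the block those 2 groups gave 1. In WT the fit with the block called KCS7 up (1.26) in place of KCS16 of the main fit. It changed no other call of the main fit by the 2-fold rule.

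With 3 pools of 8 plants per group, the spread between libraries set the limit: SEs of the heat change ran from 0.14 (KCS9) to 0.54 (KCS21) on the log2 scale in WT.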
